A study of Mus musculus with 12 samples.

Results

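The genes described here build and run the primary cilium. They were chosen by name from a fixed list of 40 genes of intraflagellar transport, the BBSome, the transition zone, the EvC zone and ciliary membrane traffic. Of these, 39 had a row under their symbol among the 21563 genes of the deposited comparison, and Tctn2, found only in a shallower table of raw counts, was not analysed here in that comparison. The study set the heart tube (HT) against the posterior second heart field (pSHF). Both came from CD1 embryos of age E10.0 labelled WT, with 6 poly-A RNA libraries per tissue and no treatment named. HT holds the differentiating heart muscle, and pSHF is the mesoderm behind it that supplies cells to the atria and the atrial septum. Both tissues were cut from one embryo by microdissection, per the labels' protocols. Whether 1 embryo or several went into a library is not said, and every p-value below therefore rests on library-to-library spread, which may be partly technical. The series title places the tissues within a study of Hedgehog signaling and the timing of differentiation.

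A primary cilium is a single antenna of microtubules that most vertebrate cells grow from their mother centriole. Kinesin carries intraflagellar transport (IFT) trains toward the tip, dynein brings them back, the BBSome moves membrane proteins out, and the transition zone acts as a gate at the base. In vertebrates the Hedgehog signal is relayed inside this organelle, where Smoothened accumulates and where Gli proteins are converted to their active or repressor forms. Mouse mutants of many cilium genes have heart and outflow defects together with altered Hedgehog signaling.

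RFX transcription factors are known to bind a motif called the X-box near the start of many cilium genes, so the promoters of the members were searched for it. RefSeq promoter windows (GRCm38.p6, 250 bases before to 50 bases after each gene start) were matched by symbol for 35 of the 39 members. The X-box was spelled as GTTNCC, any 3 letters, G, any 2 letters and AC, and was read on both strands. The letters GTTGCC, which lie inside the whole motif wherever its N before CC is G, were counted separately. The whole motif was found in 8 of 35 members (22.9%), against 360 of 11179 genes tested with a window (3.22%) and 2.53% of all genes in the promoter table. GTTGCC was found in 18 members (51.4%), against 14.9% of genes tested with a window. In a second list of cilium genes, described below, the whole motif was found in 7 of 50 genes with a window (14%) and GTTGCC in 13 (26%). The windows below are shown because they hold the whole motif, which is in capitals; each is printed 5′ to 3′ along the gene's strand.
Ift22, chr5:136908079-136908108, plus strand: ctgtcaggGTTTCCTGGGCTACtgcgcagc
Ift22, chr5:136908109-136908138, plus strand: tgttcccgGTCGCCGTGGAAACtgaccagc
Ift57, chr16:49699199-49699228, plus strand: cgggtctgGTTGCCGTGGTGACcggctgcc
Bbs1, chr19:4906605-4906634, minus strand: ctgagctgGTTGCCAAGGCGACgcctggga
Bbs4, chr9:59353464-59353493, minus strand: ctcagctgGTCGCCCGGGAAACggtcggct
Bbs7, chr3:36613489-36613518, minus strand: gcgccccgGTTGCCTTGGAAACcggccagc
Mks1, chr11:87853183-87853212, plus strand: gcgtctccGTTGCCAGGGGAACgaggcacc
Tctn1, chr5:122264411-122264440, minus strand: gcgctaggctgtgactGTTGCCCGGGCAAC
B9d2, chr7:25680788-25680817, plus strand: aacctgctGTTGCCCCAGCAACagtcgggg
In Bbs4 and in the second Ift22 window the letters match on the strand opposite to the one printed, and in Bbs7, Mks1 and Tctn1 they match on both. A match is a description of the letters. Members with the motif stood in every class of the tissue comparison: 5 of 26 members higher in pSHF, 1 of 3 higher in HT and 2 of 6 that did not pass. The median GC content of the members' promoters was 60%, against 60.7% for the genes tested with a window.

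Most primary cilium genes stood lower in HT than in pSHF, by modest amounts. Values are the authors' normalized gene counts, and log2 fold changes are HT over pSHF on log2(value + 1), from limma with Benjamini-Hochberg adjustment over 14909 genes with a mean of at least 5. All 39 members passed that filter, with values of 101 to 1845 in single libraries. An adjusted p under 0.05 was reached by 33 members, against 78.3% of all genes tested: 4 were higher in HT (10.3%) and 29 in pSHF (74.4%). Over all genes tested the shares were 38.3% higher in HT and 40.0% higher in pSHF. A difference of more than 2-fold was seen for no member in the HT direction and for 7 in the pSHF direction (17.9%), against 13.4% and 13.6% of all genes. The median log2 fold change was -0.47 over the members and -0.02 over all genes tested. In the authors' deposited table, at the same threshold, the members also split into 4 higher in HT (31.7% of all genes with an adjusted p there) and 29 higher in pSHF (33.9%).

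The direction of the smaller differences depended on how libraries were scaled. When all libraries were set to equal totals, the median of all genes shifted by -0.25, to -0.26, and that of the members was -0.71. The split was then 0 members higher in HT and 34 higher in pSHF, beside 26.2% and 54.8% of all genes. HT and pSHF libraries did not overlap for 24 members (61.5%), against 60.5% of all genes. For 1 of them all HT libraries lay above (all genes 30.1%), and for 23 all pSHF libraries lay above (all genes 30.3%). In bulk tissue, fewer ciliated cells and less RNA per cell cannot be told apart.

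**Figure D1:**
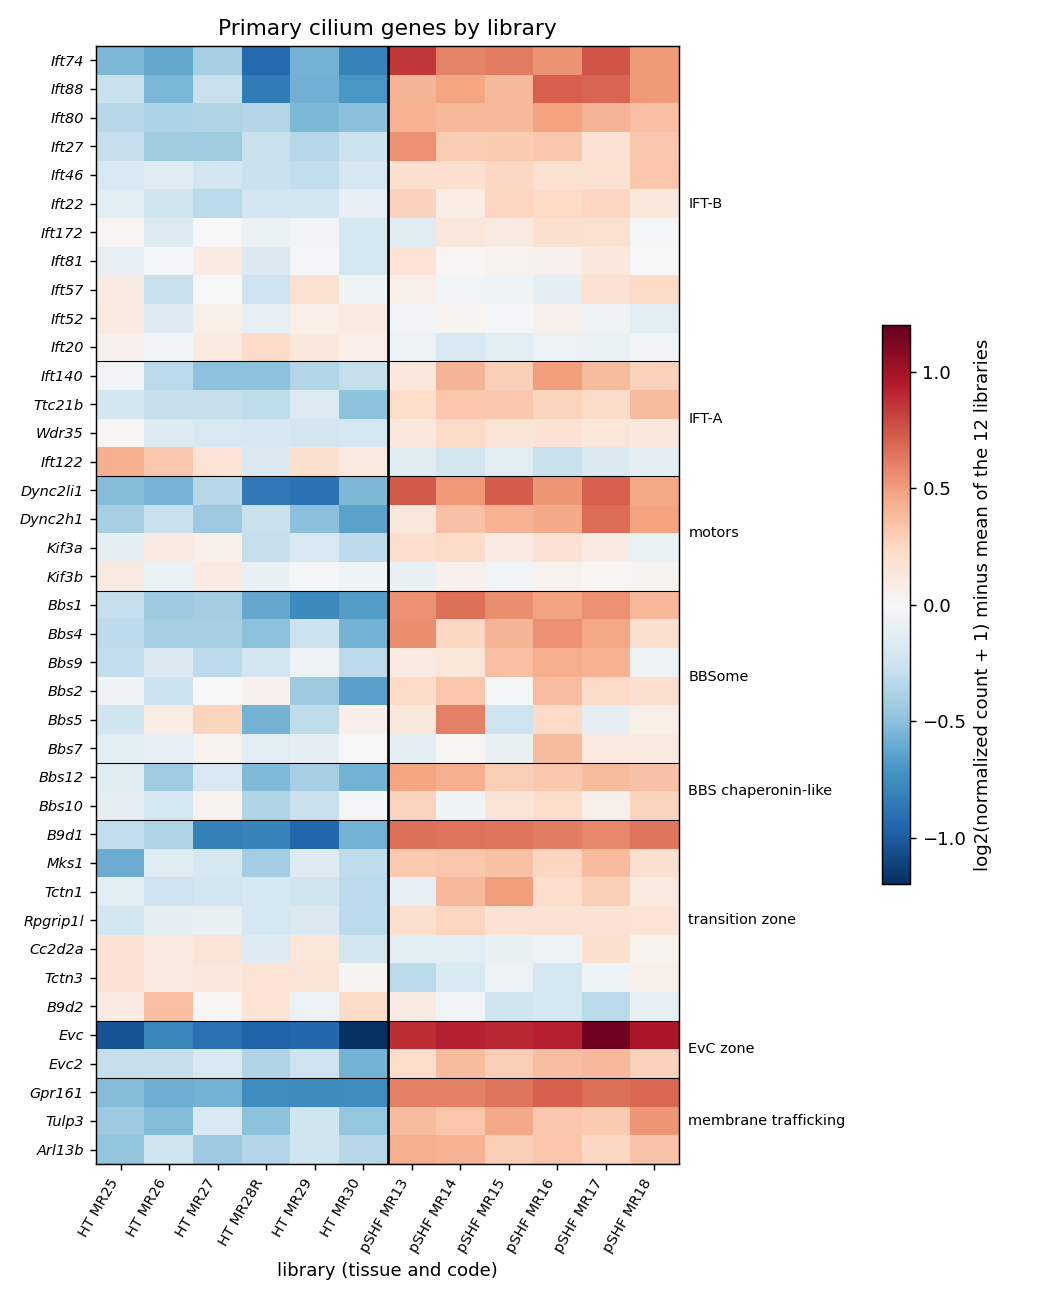
Heat map of the 39 primary cilium genes (rows, grouped by role) in the 6 HT and 6 pSHF libraries (columns); color is log2(normalized count + 1) minus the gene's mean over the 12 libraries, blue lower and red higher. Evc, Gpr161 and Ift74 show the strongest change of color between the tissues, while Kif3b and Ift52 stay pale throughout.

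Transport trains of the IFT-B complex, which carry cargo toward the tip, were unevenly affected. Of 11 members 1 was higher in HT and 8 were higher in pSHF (all genes 38.3% and 40.0%). Ift74, whose product pairs with that of Ift81 to bind tubulin, had values of 305 to 441 in HT (median 386) and of 834 to 1049 in pSHF (median 890). Every HT library lay below every pSHF library, with a log2 fold change of -1.29 (SE 0.086, adjusted p = 1.8e-09 in limma). Ift81 itself ranged from 654 to 811 in HT (median 731) and from 756 to 853 in pSHF (median 783), and the tissues overlapped. Its log2 fold change was -0.14 (adjusted p = 0.0333 in limma). The call was lost on leaving out HT library MR25 (adjusted p = 0.0561), MR28R (0.0724) or MR30 (0.0797), or pSHF library MR13 (0.0727) or MR17 (0.0677). The log2 ratio of Ift74 to Ift81, which hardly depends on library scaling, ran from -1.14 to -0.82 in HT and from 0.11 to 0.30 in pSHF.

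Ift88, the IFT-B subunit lost in the mouse Polaris mutants, had 224 to 334 in HT (median 271) and 527 to 660 in pSHF (median 565). The tissues did not overlap, and the log2 fold change was -1.07 (SE 0.10, adjusted p = 1.0e-07). Ift80 (-0.82), Ift46 (-0.44) and Ift22 (-0.42), all IFT-B subunits, were also fully separated with HT below (all genes 30.3%). Ift27, a small GTPase needed in mice for Hedgehog signaling but not for building the cilium, averaged 250.3 ± 13.8 in HT and 398 ± 33.9 in pSHF (SD, n = 6 each; -0.67 on the log2 scale). Ift172 averaged 1176 ± 74.2 in HT and 1309 ± 115 in pSHF, with overlap. Its log2 fold change was -0.15 (adjusted p = 0.0315), and the call was lost without HT library MR26 (0.0686) or MR30 (0.0738), or pSHF library MR14 (0.0626), MR15 (0.0579), MR16 (0.0743) or MR17 (0.0726).

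Of the remaining IFT-B members, 1 was higher in HT and 2 did not pass. Ift20, which also works at the Golgi in sorting ciliary membrane proteins, had 716 to 857 in HT (median 783) and 638 to 712 in pSHF (median 694). Every HT library lay above every pSHF library by a narrow margin, with a log2 fold change of 0.19 (SE 0.047, adjusted p = 0.00169), which turned to -0.053 with equal library totals. Ift52, a core subunit, had 840 to 1008 in HT (median 984) and 854 to 968 in pSHF (median 918.5). The ranges overlapped almost entirely (log2 fold change 0.04, 95% confidence interval -0.07 to 0.16, adjusted p = 0.487), and with equal totals the value was -0.20 and passed (adjusted p = 0.00366). Ift57 had 242 to 330 in HT (median 285) and 269 to 341 in pSHF (median 295), again overlapping, with a log2 fold change of -0.09 (95% confidence interval -0.28 to 0.10, adjusted p = 0.342). With equal totals it was -0.34 and passed (adjusted p = 0.00334). Exons of Ift57 share 225 bases with Gm15518 on the opposite strand, and the labels call the reads stranded while naming a kit that does not mark strand, so reads of such overlapping genes may not be told apart.

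The IFT-A complex runs the return journey and admits membrane receptors to the cilium. Of 4 members, 1 was higher in HT and 3 were higher in pSHF (all genes 38.3% and 40.0%). Ift140 averaged 815 ± 100.3 in HT and 1286 ± 113 in pSHF (-0.66). Ttc21b, whose product is also called IFT139, averaged 437 ± 33 in HT and 655 ± 28 in pSHF (-0.58), and Wdr35, or IFT121, averaged 626 ± 40.3 in HT and 782 ± 21.2 in pSHF (-0.32). All 3 separated fully by tissue with HT below (all genes 30.3%). Ift122, a core subunit of the same complex, went the other way, with 672 to 1020 in HT (median 854) and 627 to 698 in pSHF (median 678). HT library MR28R alone lay within the pSHF range, and the log2 fold change was 0.35 (SE 0.079, adjusted p = 8.3e-04), against 0.11 with equal totals (adjusted p = 0.254).

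Of 4 motor genes, 0 were higher in HT and 3 were higher in pSHF (all genes 38.3% and 40.0%). Both dynein subunits among the members, which drive the return, were lower in HT. Of ciliary dynein genes in the second list, described below, Tctex1d2 was higher in HT (0.27, adjusted p = 0.00595 in limma). Wdr60 (-1.77) and Wdr34 (-0.49) were lower in HT. Dync2li1, the light intermediate chain, had 101 to 147 in HT (median 127) and 258 to 311 in pSHF (median 288). No library overlapped, and the log2 fold change was -1.23 (SE 0.10, adjusted p = 1.9e-08). Dync2h1, the heavy chain, averaged 565 ± 56 in HT and 1011 ± 120 in pSHF (-0.84). Among kinesin subunits, which drive the outward journey and also carry cargo outside cilia, Kif3a averaged 782 ± 97.2 in HT and 925 ± 69.2 in pSHF (-0.25, adjusted p = 0.0088). Kif3b had 934 to 1069 in HT (median 970) and 931 to 1028 in pSHF (median 1012). Its tissues overlapped throughout (log2 fold change -0.01, 95% confidence interval -0.10 to 0.09, adjusted p = 0.871), although with equal totals it stood at -0.25 and passed (adjusted p = 1.7e-04).

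**Figure D2:**
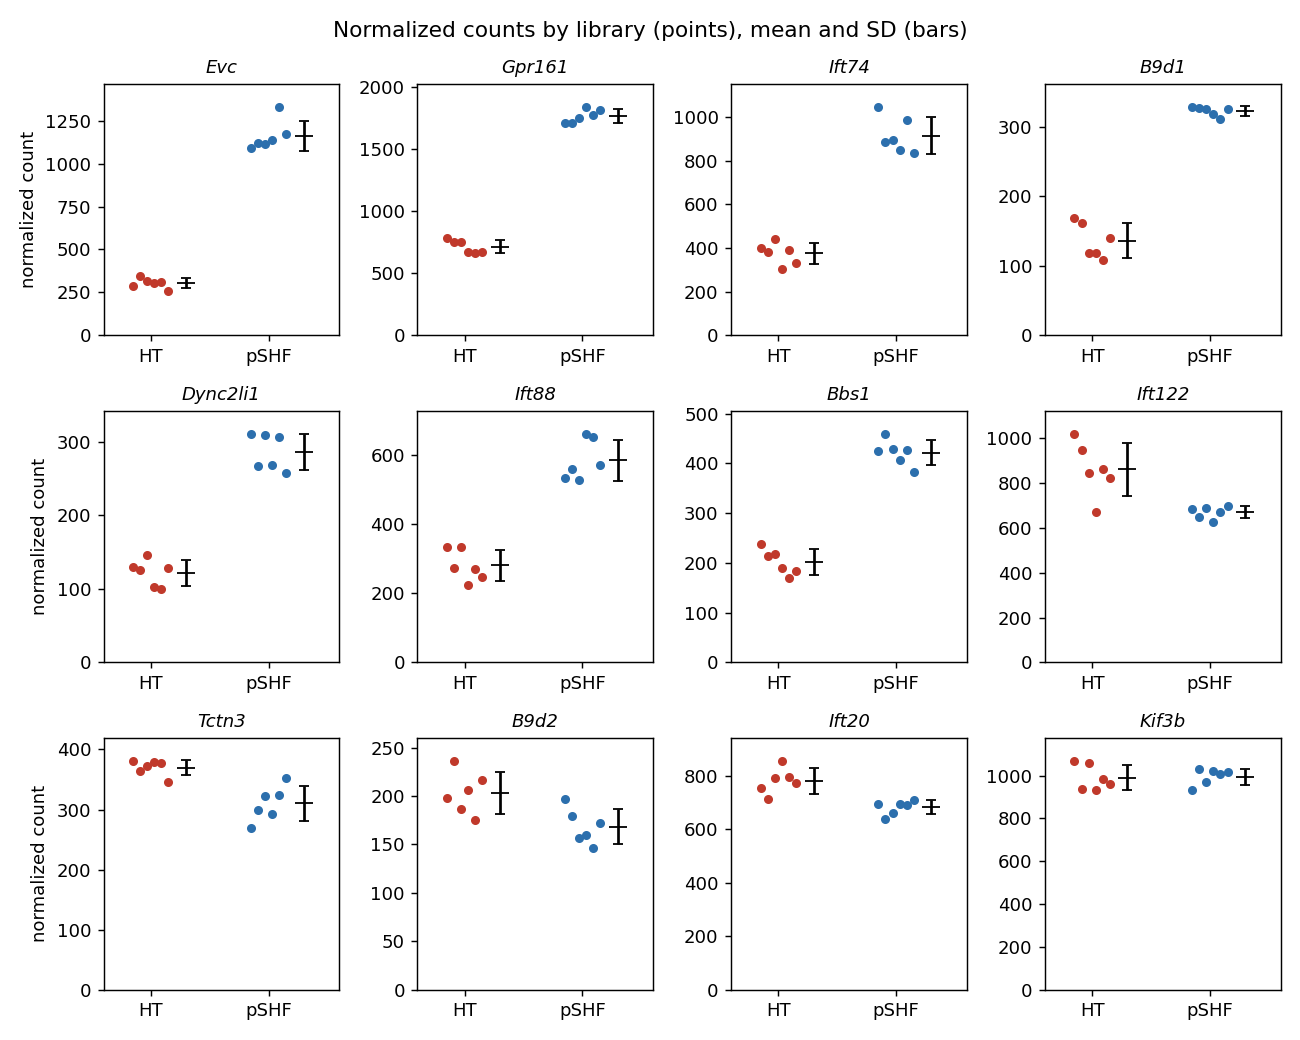
Normalized counts of 12 primary cilium genes, 1 point per library with HT left and pSHF right; the bar beside each set of points is the mean ± SD (n = 6), and each axis starts at 0. In the first 7 panels no HT point reaches a pSHF point, in Ift122, Tctn3, B9d2 and Kif3b the points overlap, and in Ift20 the HT points lie just above.

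The BBSome genes among the members, mutated in Bardet-Biedl syndrome, were lower in HT or did not pass. Of these 6, 0 were higher in HT and 4 were higher in pSHF in limma (all genes 38.3% and 40.0%). All 6 fold changes were negative, beside a median of -0.02 over all genes. Of further subunit genes in the second list, described below, Bbip1 was higher in HT (0.54, adjusted p = 3.3e-07 in limma). Ttc8 was higher in pSHF (-0.64, adjusted p = 1.5e-06 in limma). Bbs1, the subunit that docks on the GTPase ARL6, ranged from 171 to 238 in HT (median 202) and from 383 to 460 in pSHF (median 426), without overlap. Its log2 fold change was -1.06 (SE 0.082, adjusted p = 1.0e-08). Bbs4 averaged 174 ± 13.7 in HT and 306 ± 32.4 in pSHF (-0.81). Exons of Bbs4 share 194 bases with Adpgk on the opposite strand, so its level is uncertain.

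Among the other BBSome members the tissues overlapped. Bbs9 (-0.47) and Bbs2 (-0.45) passed. Bbs7 had 183 to 206 in HT (median 186) and 186 to 261 in pSHF (median 209.5), with an interval of the log2 fold change of -0.33 to 0.04. It passed with equal totals (-0.39, adjusted p = 6.1e-04) and with upper-quartile scaling (-0.23, adjusted p = 0.021). Bbs5 averaged 148 ± 30.8 in HT and 174 ± 37.7 in pSHF, the widest relative spread among members in both tissues (20.8% and 21.7% of the mean), with an interval of -0.56 to 0.11. It passed with equal totals (-0.47, adjusted p = 0.0123), where all 6 BBSome members were higher in pSHF, beside 54.8% of all genes. Of the chaperonin-like genes, whose products help assemble the BBSome, Bbs12 averaged 204 ± 25.4 in HT and 342 ± 16.3 in pSHF (-0.75), and Bbs10 averaged 163 ± 17.4 in HT and 201 ± 17.5 in pSHF (-0.31). Both passed with HT lower (all genes 40.0%), while Mkks of the second list, which works with them, was higher in HT (0.80).

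With the deposited scaling, genes of the transition zone went both ways. Of 7, 2 were higher in HT and 4 were higher in pSHF (all genes 38.3% and 40.0%). With equal totals 0 were higher in HT and 4 were higher in pSHF (all genes 26.2% and 54.8%). B9d1, a B9-domain protein of the gate, had 108 to 169 in HT (median 129) and 311 to 329 in pSHF (median 325). The pSHF libraries lay close together and all above HT, with a log2 fold change of -1.26 (SE 0.10, adjusted p = 2.3e-08). B9d2, the partner it binds, had 176 to 236 in HT (median 202) and 147 to 197 in pSHF (median 166). Its tissues overlapped, and its log2 fold change of 0.27 (adjusted p = 0.0156) was 0.02 with equal totals and did not pass (adjusted p = 0.827). The log2 ratio of B9d1 to B9d2 ran from -0.79 to -0.23 in HT and from 0.74 to 1.08 in pSHF. Mks1, the third B9-domain member, averaged 206 ± 24 in HT and 314 ± 14.3 in pSHF (-0.61).

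The Tectonic genes encode proteins of the same gate. Tctn1 averaged 181 ± 7.94 in HT and 252 ± 36.5 in pSHF (-0.47), without overlap, but 1574 of its exon bases overlap Hvcn1 on the opposite strand. Tctn3 had 347 to 381 in HT (median 375) and 269 to 353 in pSHF (median 311). The lowest HT library lay just under the highest pSHF library. Its log2 fold change was 0.26 (SE 0.066, adjusted p = 0.00222), against 0.01 with equal totals (adjusted p = 0.859). Rpgrip1l, a scaffold of the gate, averaged 444 ± 25.3 in HT and 577 ± 14.3 in pSHF (-0.38). Cc2d2a had 619 to 814 in HT (median 789.5) and 656 to 827 in pSHF (median 682), overlapping, with an interval of the log2 fold change of -0.10 to 0.24.

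Both genes of the EvC zone were lower in HT (all genes 40.0%). Evc and Evc2 encode a complex just above the transition zone that binds activated Smoothened, and their loss causes Ellis-van Creveld syndrome, in which atrial septal defects are frequent. The genes lie head to head on mm10 chromosome 5, Evc at 37289098 to 37336894 and Evc2 at 37338499 to 37425055, with 1604 bases between them. Evc had 259 to 345 in HT (median 306) and 1092 to 1332 in pSHF (median 1128). The gap between the tissues was wider than either range, and its log2 fold change of -1.93 (SE 0.068, adjusted p = 1.1e-12) was the largest in size among the members. Evc2 had 492 to 637 in HT (median 603) and 849 to 957 in pSHF (median 919), also without overlap, with a log2 fold change of -0.64 (SE 0.060, adjusted p = 9.9e-08). The log2 ratio of Evc to Evc2 ran from -1.06 to -0.80 in HT and from 0.24 to 0.48 in pSHF, so the neighbors differed unequally between the tissues.

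All 3 members of ciliary membrane traffic were lower in HT as well (all genes 40.0%). Gpr161, an orphan receptor that holds the pathway in check from inside the cilium, had 665 to 785 in HT (median 710) and 1709 to 1845 in pSHF (median 1764). No library overlapped, and the log2 fold change was -1.31 (SE 0.048, adjusted p = 1.8e-12). Tulp3, the adaptor that brings GPR161 into the cilium together with IFT-A, had 720 to 908 in HT (median 754) and 1281 to 1486 in pSHF (median 1319), a log2 fold change of -0.78. Arl13b, a GTPase of the ciliary membrane, averaged 379 ± 25.2 in HT and 611 ± 29.8 in pSHF (-0.69).

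**Figure D3:**
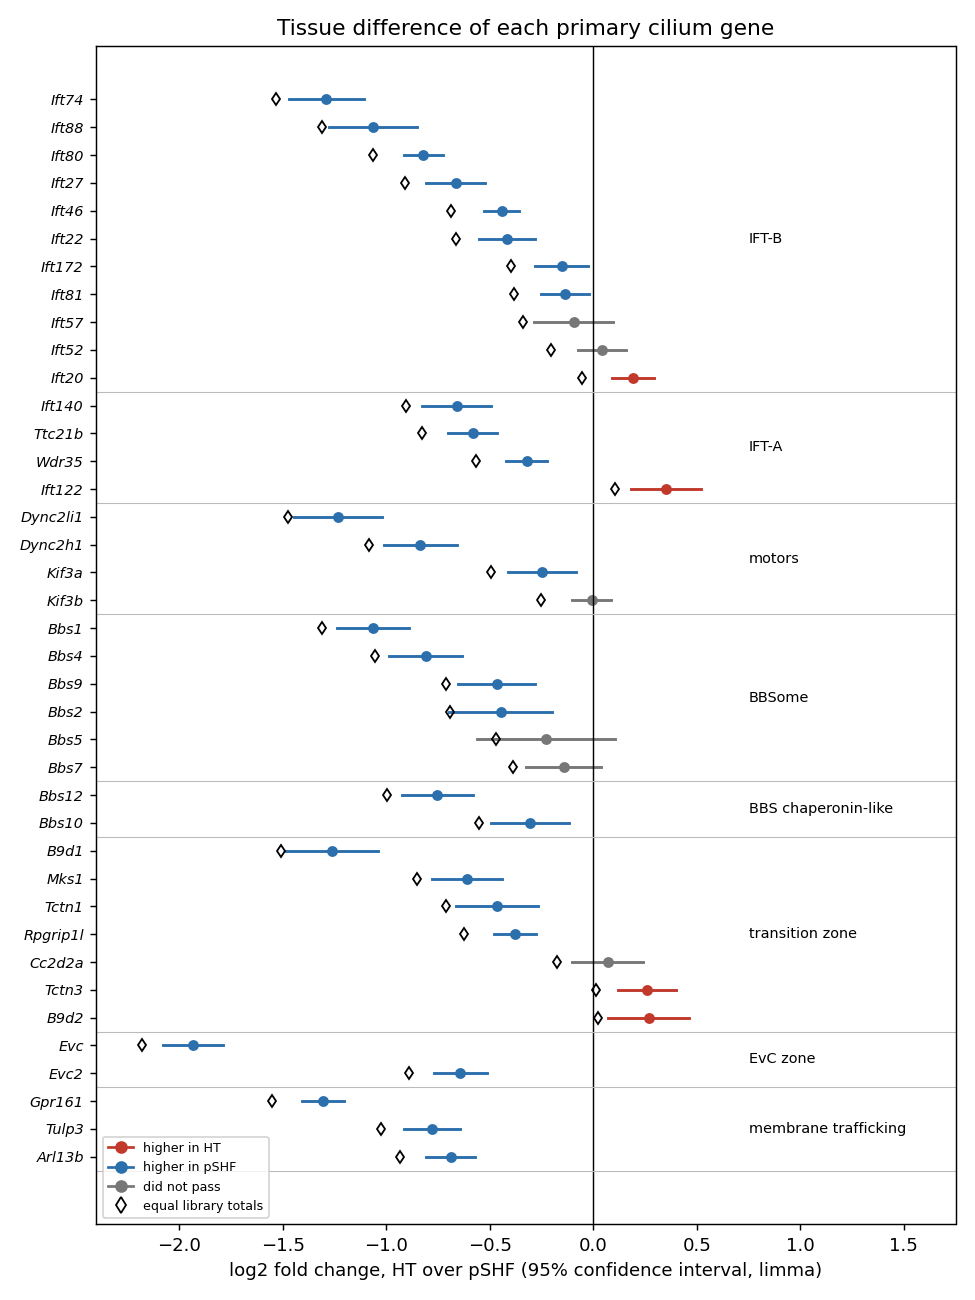
Each point is the log2 fold change of 1 primary cilium gene, HT over pSHF, and its line is the 95% confidence interval from limma, grouped by role; red, higher in HT; blue, higher in pSHF; gray, did not pass. Open diamonds give the value with equal library totals, which lie about 0.25 to the left, and with them no gene passes on the HT side.

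Levels between genes were compared per kb of the longest annotated transcript, as the mean normalized count over the 12 libraries. Ift20 was highest at 628 per kb, with 670 in HT and 585 in pSHF, above 83.2% of genes tested. Ift52 followed at 416, with 422 in HT and 409 in pSHF, and Ift74 at 302, with 176 in HT and 428 in pSHF. The lowest was Tctn1 at 37.8 per kb, above 24.4% of genes tested. Ift20, Ift52 and Ift74 also led when the union of exons gave the length (480, 334 and 243 per kb). The spread between libraries was small for most members: the median coefficient of variation was 8.77% in HT and 7.49% in pSHF.

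Direct partners did not always keep their ratio between tissues. Besides the pairs above, Ift27 binds the product of Hspb11, also called IFT25, which averaged 245 ± 23.7 in HT and 149 ± 11.3 in pSHF, opposite in direction to Ift27. The log2 ratio of Ift27 to Hspb11 ran from -0.15 to 0.28 in HT and from 1.23 to 1.61 in pSHF. The ratio of Tctn1 to Tctn3 also separated the tissues, from -1.06 to -0.97 in HT and from -0.63 to -0.10 in pSHF. Those of Kif3a to Kif3b and of Dync2h1 to Dync2li1 overlapped between the tissues. These 7 pairs were chosen after their values were seen and are given without a test.

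A start of a protein-coding gene on the opposite strand within 1000 bases upstream was found for 8 of 39 members (20.5%), against 9.12% of 14766 protein-coding genes tested. Of their 8 partners, 3 were higher in HT and 3 higher in pSHF (all genes 38.3% and 40.0%), and 2 did not pass. Ift80 (-0.82) starts 168 bases from Smc4, a condensin gene with a log2 fold change of 0.36. Ift122 (0.35) starts 99 bases from Mbd4, a DNA repair glycosylase gene with a log2 fold change of -0.61. In both pairs the neighbors differed in opposite directions. The other partners that passed went the same way as their members. Those higher in HT were Tnfaip1 (0.38) beside Ift20 (0.19) and Entpd1 (2.39) beside Tctn3 (0.26). Those higher in pSHF were Cramp1l (-0.28) beside Ift140 (-0.66) and Dcun1d5 (-0.12) beside Dync2h1 (-0.84).

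A second list of 57 cilium genes outside the 40, all of them tested, had a similar split. Of these 8 were higher in HT (14%) and 40 higher in pSHF (70.2%), with a median log2 fold change of -0.49. The lowest fold changes belonged to Wdr60, an intermediate chain of ciliary dynein, at 134 ± 19.6 in HT and 456 ± 14.8 in pSHF (-1.77), and to Tmem231, a transition zone gene, at 139 ± 12.6 in HT and 405 ± 25.2 in pSHF (-1.54). The highest belonged to Ift43, an IFT-A subunit, at 519 ± 55 in HT and 267 ± 12.5 in pSHF (0.95), and to Mkks, which works with Bbs10 and Bbs12, at 1019 ± 75.4 in HT and 584 ± 48.3 in pSHF (0.80). The signal transducer gene Smo, named after its values were seen, averaged 2127 ± 115 in HT and 5590 ± 135 in pSHF (-1.39).

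**Figure D4:**
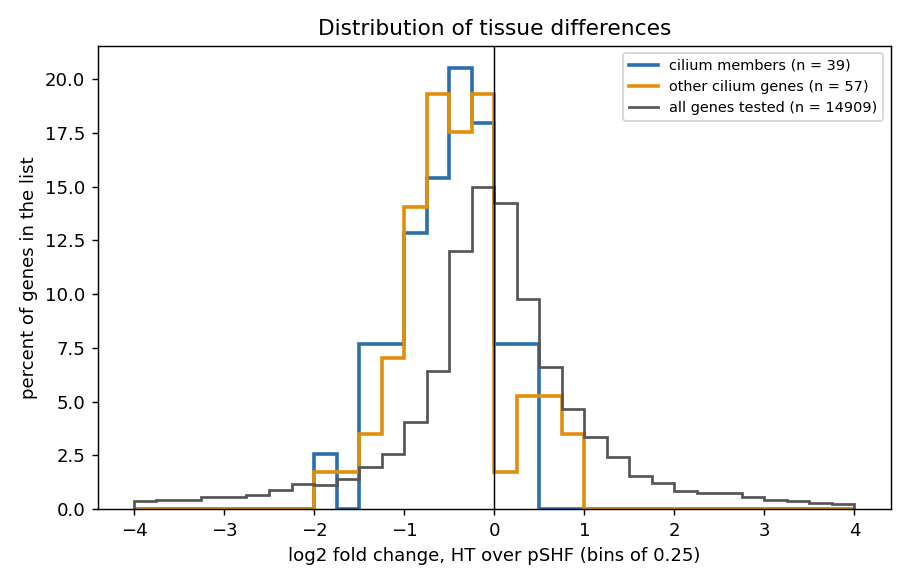
Percent of genes per bin of log2 fold change, HT over pSHF, for the 39 primary cilium genes, the 57 other cilium genes and all 14909 genes tested; values beyond 4 in size are not drawn. Both cilium lists lie left of the distribution of all genes, with medians of -0.47 and -0.49 against -0.02.

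Most genes of motile cilia had low levels, with Ccdc40, an assembly factor of motile axonemes, highest at 104 ± 20.1 in HT and 188 ± 29.5 in pSHF. Of 24 listed, 22 were in the table and 16 were tested. Among those tested, 3 were higher in HT and 8 higher in pSHF (all genes 38.3% and 40.0%). Their summed level was 346 to 426 in HT libraries and 558 to 676 in pSHF libraries. Foxj1, the regulator that defines motile ciliated cells, averaged 7.14 ± 2.49 in HT and 22.8 ± 7.94 in pSHF, and Gmnc, an upstream regulator of multiciliated cells, was listed at 0 in all HT libraries. The extremes were Tekt1 (-2.98) and Ccdc39 (-1.67) at the low end and Rsph1 (1.17) and Tekt4 (3.06) at the high end. Of 7 RFX genes tested, 2 were higher in HT, Rfx8 (1.01) and Rfx2 (0.56), and 5 were higher in pSHF, beside the same all-gene shares. Rfx3, a known regulator of cilium genes in mice, averaged 753 ± 57.4 in HT and 1073 ± 58.4 in pSHF (-0.51), and Rfx7 averaged 1718 ± 84.8 in HT and 2552 ± 62.6 in pSHF (-0.57). Rfx6, known from gut and pancreas endoderm, had 0 in every HT library and 105 ± 26.1 in pSHF.

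Read totals rebuilt from the smallest steps of the values lay between 20634432 and 25645396 in HT libraries and between 19089555 and 26287286 in pSHF libraries. The tissue labels fitted their markers: all 6 heart muscle markers were higher in HT and all 6 second heart field markers were higher in pSHF. Erythroid genes held 1.66 to 7.10% of HT libraries and 0.351 to 0.694% of pSHF libraries. Other cell types moved with the tissue: all 10 endoderm, all 6 neural crest, all 5 tested neural and 5 of 6 somite markers were higher in pSHF, and all 6 endothelial markers were higher in HT. Summed levels were 1209 to 1739 in HT and 4654 to 5802 in pSHF for endoderm, and 864 to 1140 in HT and 2439 to 2724 in pSHF for neural crest. They were 555 to 630 in HT and 1922 to 3087 in pSHF for neural markers, and 192 to 339 in HT and 386 to 903 in pSHF for somite markers. Endothelial markers summed to 16415 to 20689 in HT and 9323 to 10592 in pSHF. Neurog1 and Neurod1 were listed at 0 in all HT libraries. The part of these cell types in the cilium gene differences was not tested. Since a primary cilium is taken down as cells divide, 12 cell cycle genes were also counted, of which 3 were higher in HT and 5 in pSHF (all genes 38.3% and 40.0%), with a median log2 fold change of -0.05. With equal totals 1 was higher in HT and 10 were higher in pSHF (all genes 26.2% and 54.8%), with a median of -0.29. The part of cell division in the cilium gene differences was not tested.

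The summed level of the 39 members was 688 to 793 per 1000000 normalized counts in HT libraries and 1215 to 1276 in pSHF libraries. Within HT, MR25 had the smallest erythroid share (1.66%) and the highest sum (793), and MR28R had the largest share (7.10%) and the lowest sum (688). With erythroid and mitochondrial-genome genes taken out of the total, the sums were 762 to 832 in HT and 1248 to 1308 in pSHF. MR30 (5.84%) was then lowest and MR25 still highest. The part of blood content in the member differences was not tested beyond this. Without MR28R and MR30, 4 members were higher in HT and 26 higher in pSHF, with Cc2d2a newly higher in HT (0.18, adjusted p = 0.0209) and B9d2 (0.0617), Kif3a (0.0622), Ift172 (0.116) and Ift81 (0.201) no longer passing.

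**Figure D5:**
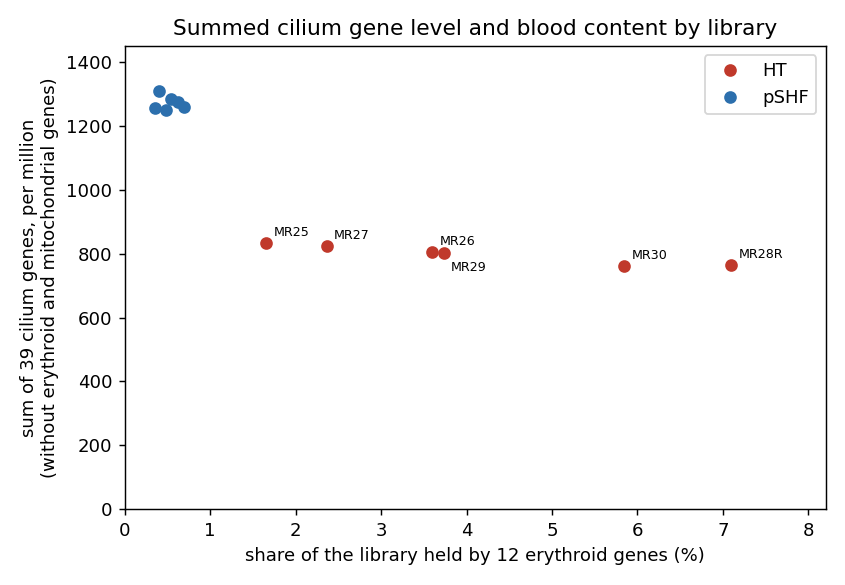
Summed level of the 39 primary cilium genes per 1000000 normalized counts, without erythroid and mitochondrial-genome genes, against the share of each library held by 12 erythroid genes; 1 point per library, HT in red with its code and pSHF in blue. All HT points lie between 762 and 832 and all pSHF points between 1248 and 1308, and the HT libraries with the largest erythroid shares, MR28R and MR30, have the lowest sums.

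A shallower deposited table of raw counts summed to 233865 to 286936 per HT library and 244006 to 340434 per pSHF library, 1.08 to 1.3% of the rebuilt depth. The members found in it, 39 including Tctn2 but without Ift22, summed to 67 to 98 counts per library in HT and 158 to 205 in pSHF. Its counts did not follow the normalized values across members. Gpr161 had 4 raw counts in HT and 4 in pSHF, at normalized means of 716 and 1768. Tctn1, given next, had more raw counts at normalized means of 181 and 252. How these reads were counted is not stated, and the raw counts and normalized values may not hold the same signal. With edgeR's quasi-likelihood test 1 member could be tested, Tctn1, at 57 counts in HT and 364 in pSHF over 6 libraries each (-2.42 on the log2 scale, adjusted p = 3.1e-14). Its log2 fold change in the normalized values was -0.47, and 1574 of its exon bases overlap Hvcn1 on the opposite strand. Whether these counts include reads of Hvcn1 was not tested. Over all genes 48.3% passed, 25.2% as higher in HT and 23.1% as higher in pSHF. DESeq2 also called Evc, at 2 counts in HT and 24 in pSHF (adjusted p = 0.0122). Without a filter on low counts edgeR called 3 members.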

How the data were processed

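Poly-A RNA of 6 HT and 6 pSHF libraries was sequenced. The submitters' processing notes name STAR, DESeq2 and build mm10, with versions and annotation not given in the sources used here. Deposited by the authors were a DESeq2 table with a normalized signal per library, a log2 fold change with its error, a score (the test statistic), p-values and adjusted p-values, and a second table of raw counts per gene symbol. Columns carry tissue and library code, so libraries were grouped by tissue. In the deposited signal 46.6 to 49.6% of values under about 20 reads were whole multiples of 1 step per library (tolerance 0.01 reads); 10 of 39 members were whole in all 12 libraries, of which 8 were higher in pSHF, 1 in HT, and 1 did not pass. The remaining values were not whole, for a reason no label or header states, and the rebuilt depth is an approximation.

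The normalized values were tested with limma (version 3.58.1, trend) on log2(value + 1), keeping genes whose mean reached 5. The raw counts were tested with edgeR (version 4.0.16, quasi-likelihood, TMM, filterByExpr) and DESeq2 (version 1.42.0), in R 4.3.3. The limma and edgeR fits, but not DESeq2, were also run on simulated counts. Those had independent libraries and the same spread setting for every gene, which is simpler than these data. Symbols of 27 genes that had become dates were restored by identifier. Coordinates, lengths and strand overlap (at least 100 shared exon bases) are from GENCODE for GRCm38, matched by identifier. The members, lists and tests were chosen with earlier results of these data known. Values per library were given for the members with the 6 largest and 6 smallest fold changes, the 6 nearest to 0 and the 3 highest levels per kb, with Bbs1, Evc2 and Tulp3 added after their values were seen. From the other cilium, motile and RFX lists the rule took the 2 largest and 2 smallest fold changes. Smo, Hspb11, Bbip1, Ttc8, Wdr34, Tctex1d2, Foxj1, Gmnc, Ccdc40 and Rfx3 were added after their values were seen. Alternatives were other pseudocounts, filters, scalings, thresholds and tests, and each library left out.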

Additional observations from a re-analysis of the deposited data

Results flagged for a closer look

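Among 78 groups of 6 libraries (39 members in 2 tissues), 3 held a library whose gap to its nearest neighbor exceeded Dixon's 95% limit as a share of the group's range, which chance passes in about 1 of 20 groups. Evc stood at 1332 in pSHF library MR17, against 1172 in the next highest pSHF library. Wdr35 stood at 707 in HT library MR25, against 624 in the next. Rpgrip1l stood at 606 in pSHF library MR14, against 576 in the next. In each case the library was the highest of its tissue, and the 2 tissues still did not overlap.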

How the results depend on the processing

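Leaving out each library in turn gave 4 members higher in HT every time and 27 to 29 higher in pSHF; for the other cilium genes it gave 7 to 8 higher in HT and 39 to 42 in pSHF, and for all genes 5582 to 5669 in HT and 5820 to 5968 in pSHF. Of 468 such member values, 453 kept direction and call, 11 (Ift81 and Ift172) lost the call, and Kif3b, at -0.031 to 0.008, changed sign in 4. The count of members higher in HT was the least stable: 0 with equal library totals, 2 with upper-quartile scaling and 1 with equal totals after removing erythroid and mitochondrial-genome genes. Scaling turned Ift52 (-0.20, -0.046 and -0.14 in those 3 settings) and Cc2d2a (-0.18, -0.019 and -0.11), and equal totals turned Ift20 (-0.053). Kif3b was at 0.024 with TMM, 0.024 without HT libraries MR28R and MR30 and 0.019 with edgeR on rebuilt reads, the last 2 chosen after seeing the data; those reads gave 4 members higher in HT and 27 in pSHF. Requiring more than 2-fold left 0 members, 0 other cilium genes and 1995 of all genes higher in HT, and 7, 8 and 2032 higher in pSHF. In the raw count table edgeR called 0, 2 and 850 of these lists higher in HT and 1, 6 and 779 higher in pSHF, and DESeq2 called 0, 2 and 1183 higher in HT and 2, 7 and 1005 higher in pSHF; without a filter edgeR called 3 members. There DESeq2 gave opposite signs for Gpr161 (0.32), B9d1 (0.40), Ift88 (0.19), Kif3b (0.19), Ift27 (0.72), Bbs9 (0.019), Ift122 (-0.10), Ift20 (-0.67), Tctn3 (-1.19), Bbs10 (1.82), Bbs5 (0.69) and Ift81 (0.59), none with an adjusted p under 0.05, at few counts per member. The cause of these changes was not tested. Pseudocounts, other filters, TMM, a threshold of 0.01 and the authors' deposited DESeq2 calls kept both member counts within 1.5 times. No paired analysis was possible because the columns carry library codes and no replicate numbers.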
